A study of Mus musculus with 46 samples.

Results

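The 36 genes described here code the steps of glycolysis, from glucose entry to lactate export, together with the hypoxia-inducible factor gene Hif1a and genes it is known to control. They were taken by name and all 36 are among the 46264 gene symbols of the table. They comprise 2 glucose transporters (Slc2a1, Slc2a3), 3 hexokinases (Hk1, Hk2, Hk3), Gpi1, 3 phosphofructokinases (Pfkl, Pfkm, Pfkp) and 3 bifunctional regulators of that step (Pfkfb2, Pfkfb3, Pfkfb4). They further comprise the enzymes of the lower pathway (Aldoa, Aldoc, Tpi1, Gapdh, Pgk1, Pgam1, Eno1, Pkm), the lactate dehydrogenases Ldha and Ldhb, 3 pyruvate dehydrogenase kinases (Pdk1, Pdk2, Pdk3) and the lactate carriers Slc16a1 and Slc16a3. The hypoxia group holds Hif1a, the oxygen sensors Egln1 and Egln3, and the target genes Bnip3, Bnip3l, Ankrd37, Ddit4, Vegfa and P4ha1.

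Bulk poly(A) RNA was sequenced from 46 mouse libraries in a mouse model of mucous membrane pemphigoid, where antibodies to laminin 332 cause blisters. An experiment labelled Ics had 4 libraries at 0 h, titled unstimulated, and 4 each at 3 h and 6 h, titled as stimulated with Ics. What Ics stands for, and which cells were used, the labels leave unsaid. The other 34 libraries came from mice given intravenous immunoglobulin (IVIG) or phosphate-buffered saline (PBS). These were labelled Blood (5 IVIG, 5 PBS), Neutrophil (5 and 5), Monocyte (3 and 5) and Skin (3 and 3). The protocol speaks of neutrophils and monocytes derived from bone marrow and of whole blood. Strain and age are not given in the sources used here. The groups follow the condition field and the titles. The titles mark the same libraries as IVIG and do not name PBS. A separate treatment field differed from the condition in 34 libraries, 11 of them Ics. The titles repeat numbers, from 1 to 4 across the Ics times and others across tissues. The labels do not say whether a shared number marks a shared animal or culture, and the p-values cover the spread among libraries, which may be technical.

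Library totals ran from 18965431 to 43176537 estimated counts, and from 24827628 to 29502785 in the Ics libraries. In the 12 Ics libraries, 10 neutrophil marker genes (among them S100a8, S100a9 and Ly6g) summed to 58550 to 104500 CPM (counts scaled to a common library total), and 4 keratinocyte markers summed to at most 0.177 CPM. In 9 of the 34 tissue libraries the markers went against the tissue label, with haemoglobin at 96.2% to 98.3% of the counts in 2 labelled Neutrophil and 2 labelled Skin. The tissue comparisons therefore used the 25 libraries whose markers matched the label: 6 Blood (3 IVIG), 8 Neutrophil (4 IVIG), 7 Monocyte (3 IVIG) and 4 Skin (2 IVIG). No library was given another label. The monocyte class was what the other limits left, with no monocyte marker required. Monocyte and macrophage markers summed to 558 to 4312 CPM in the 7 monocyte libraries and 1342 to 1990 in the 8 neutrophil libraries, with Monocyte PBS 3 below all 8. Neutrophil markers summed to 2103 to 18180 CPM in the monocyte libraries, highest in Monocyte PBS 2, against 90528 to 158191 in the neutrophil libraries. The part of these sums in the tissue differences was not tested. The column names would change place for 29 libraries if the order of the descriptions were taken in place of the header's, none of them an Ics library. Under that order each of the 9 would carry a name of the tissue its markers showed, and every matching library would keep its tissue name. Which order is right was not tested.

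Glycolysis splits glucose into pyruvate in the cytosol and gains ATP without oxygen. Hexokinase traps glucose in the cell, phosphofructokinase commits it to the pathway, and lactate dehydrogenase turns pyruvate into lactate while restoring NAD. Neutrophils hold few mitochondria and are known to live largely on glycolysis. Hypoxia-inducible factor 1 alpha is broken down in oxygen after prolyl hydroxylases, coded by the Egln genes, mark it. When it is stable it raises transcription of many glycolytic genes. In myeloid cells it is known to be induced by inflammatory signals as well as by low oxygen.

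Over the Ics time course the members moved in separate directions and at separate times. Of 35 tested, 9 rose and 11 fell at 3 h against 0 h (edgeR, adjusted p under 0.05, with a background of 54.4% of all 14996 genes called, 26.9% higher and 27.5% lower). At 6 h against 0 h, 15 rose and 12 fell (background 60%, with 29.6% of genes higher and 30.4% lower). Between 3 h and 6 h, 16 rose and 6 fell (background 40.8%, with 20.5% of genes higher and 20.3% lower). Aldoc, at 2 to 12 counts a library, was too low to test. The median log2 change of the members was -0.19 at 3 h and 0.12 at 6 h against 0 h, and 0.19 from 3 h to 6 h. The same medians over all genes tested were -0.057, -0.060 and -0.032. The 3 comparisons share libraries in pairs, so their counts are not independent. Groups did not overlap for 21 members at 3 h against 0 h (background 49.7% of genes), for 25 at 6 h against 0 h (background 55.3%) and for 20 between 3 h and 6 h (background 37.1%). Scaling by library totals alone moved the median of all genes at 3 h from -0.057 to -0.30 and gave 5 members higher and 22 lower at 3 h. On that scaling 11 were higher and 14 lower at 6 h against 0 h, where the median of all genes was -0.22, and 20 higher and 5 lower from 3 h to 6 h.

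**Figure D1:**
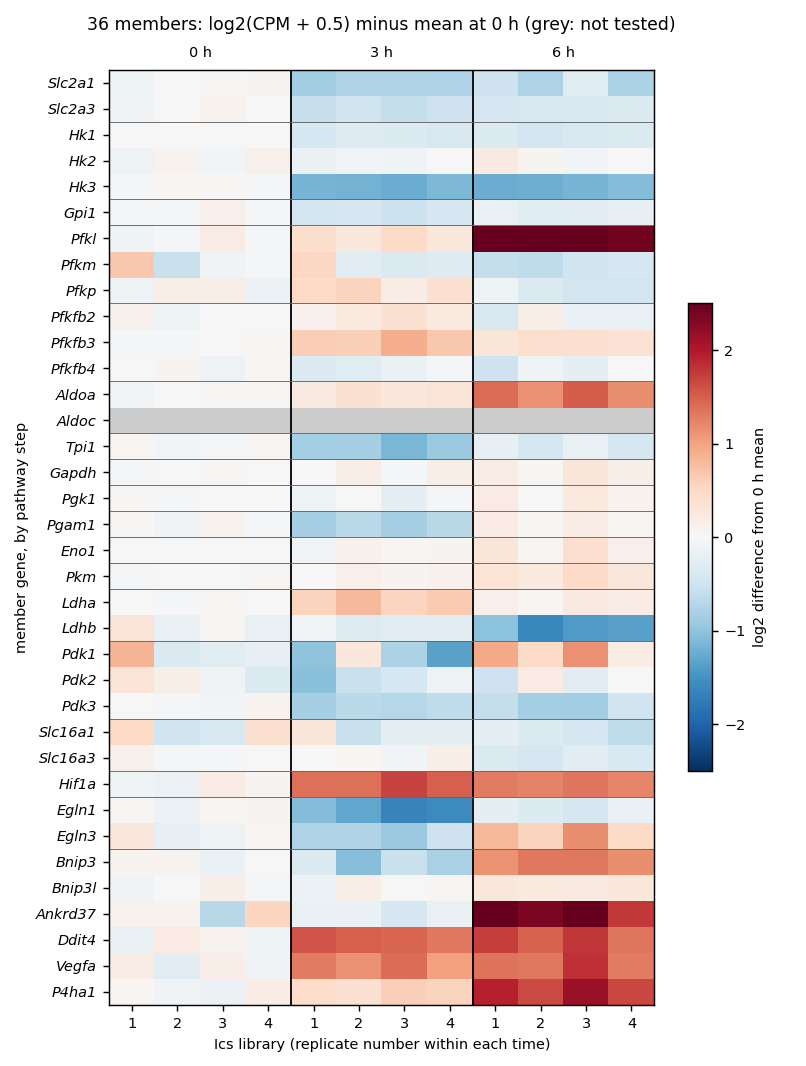
Heat map of the 36 members (rows, by pathway step) in the 12 Ics libraries (columns, by time and replicate number), with colour giving log2(CPM + 0.5) minus the gene's mean at 0 h. Pfkl, Ankrd37 and P4ha1 are darkest red at 6 h, while Hif1a, Ddit4 and Vegfa are red at both later times, and Hk3 is blue at both.

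The cell markers also moved over this time course. Neutrophil marker sums were 96170 to 104500 CPM at 0 h, 70860 to 84440 at 3 h and 58550 to 64280 at 6 h. Sums of 10 monocyte and macrophage markers were 798 to 893, 958 to 998 and 978 to 1061 CPM, with 2 of the 10 at 0 in every library at 6 h. Within that list at 6 h against 0 h, Adgre1 rose 6.98-fold, Csf1r 3.62-fold and Cd68 3.08-fold, while Ly6c2 was 2.23-fold and Ccr2 5.51-fold lower. Red cell markers summed to between 114.5 and 296.5 CPM at 0 h and between 8.18 and 19.6 at 6 h. Platelet markers summed to between 25.6 and 35.4 CPM at 0 h and between 6.13 and 10.3 at 6 h, and proliferation markers to between 515 and 634.5 and between 233.5 and 330.2. Their part in the results below was not tested, and in these bulk libraries fewer cells of a type and less RNA per cell cannot be told apart.

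Both glucose transporter genes were lower after 0 h. Slc2a1 (chromosome 4, 119108711 to 119137983, GRCm38), which codes the widespread transporter GLUT1, stood at 50.8, 54.9, 56.4 and 57.6 CPM at 0 h, 29.8, 32.4, 32.3 and 31.8 at 3 h and 38.2, 32.1, 44.2 and 31.5 at 6 h in replicates 1 to 4. All libraries at 3 h and 6 h were below all at 0 h. It fell by 0.80 on the log2 scale at 3 h (SE 0.095, adjusted p = 5.25e-06) and by 0.59 at 6 h (adjusted p = 8.45e-05). Slc2a3 (chromosome 6, 122727809 to 122801640), the high-affinity GLUT3 of neutrophils and neurons, went from 1100.5 ± 56.8 CPM (SD, n = 4) to 753 ± 23.7 at 3 h and 835 ± 22.2 at 6 h. The fall at 3 h was followed by a small rise of 0.15 ± 0.048 (log2, SE) from 3 h to 6 h. That rise did not pass without Ics 6 h replicate 4 (adjusted p = 0.0681). Per kilobase of transcript, Slc2a3 held 96.4% of the level of the pair at 0 h and 96.8% at 6 h (by median transcript length; 94.4% and 95.1% by the longest).

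Among hexokinases, which phosphorylate glucose on entry, Hk3 carried the change. Hk3 (chromosome 13, 55005985 to 55021385) codes the isoform typical of myeloid cells. Its CPM values at 0 h were 862, 911, 890.1 and 841, against 390.1, 384, 369.9 and 401 at 3 h and 369, 377, 394 and 413 at 6 h. The lowest library at 0 h was thus far above the highest later one, and the 3 h and 6 h libraries overlapped. The log2 change was -1.18 ± 0.050 at 3 h (adjusted p = 8.14e-11) and -1.17 ± 0.050 at 6 h (adjusted p = 1.04e-10), with 0.0071 ± 0.049 between them. Hk1, the mitochondria-bound housekeeping isoform, fell from 91.1 ± 0.801 to 70.0 ± 2.71 and 69.2 ± 2.67 CPM. Hk2, the inducible isoform and a known HIF target, was at 111 ± 9.09, 104 ± 4.46 and 115 ± 10.46 CPM and did not pass in any comparison (log2 0.057 ± 0.072 at 6 h). Hk3 held 60.5% of the hexokinase level per kilobase at 0 h and 45.7% at 6 h by median transcript length, or 87.0% and 77.0% by the longest transcript. The median annotated transcript of Hk1 is 0.581 kb and its longest is 4.278 kb.

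Gpi1, which turns glucose 6-phosphate into fructose 6-phosphate, was at 705, 692, 778 and 690.1 CPM at 0 h, 521, 534, 491 and 531 at 3 h and 632, 576, 596 and 621 at 6 h. Its dip at 3 h (log2 -0.46 ± 0.053) was partly undone by 6 h (log2 0.22 ± 0.053 from 3 h), and it remained lower than at 0 h (log2 -0.24 ± 0.052, adjusted p = 0.00117).

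At the committed step Pfkl and Pfkp changed places. Pfkl (chromosome 10, 77986947 to 78010083), the liver-type subunit, had 21.7, 22.7, 27.2 and 22.5 CPM at 0 h, 31.9, 28.3, 33.1 and 28.2 at 3 h and 152, 143, 157 and 126 at 6 h. Every library at 6 h was above every library at 3 h, and those above every library at 0 h. The log2 change was 0.37 ± 0.090 at 3 h (adjusted p = 0.00299), 2.62 ± 0.091 at 6 h (6.15-fold, adjusted p = 1.67e-11) and 2.25 ± 0.090 from 3 h to 6 h. Pfkp, the platelet-type subunit, rose to 42.9 to 55.8 CPM at 3 h from 33.9 to 41.9, and fell to 27.5 to 35.0 at 6 h, with log2 changes of 0.41 ± 0.11, -0.34 ± 0.11 and -0.76 ± 0.11. With library totals alone the rises at 3 h of both Pfkl (log2 0.12, adjusted p = 0.233) and Pfkp (log2 0.17, adjusted p = 0.195) did not pass. Pfkm, the muscle subunit, was low, at 0.580 to 2.05 CPM at 0 h and 0.532 to 0.692 at 6 h. Its fall at 6 h (log2 -0.97 ± 0.39, adjusted p = 0.0419) did not pass without any one of 7 libraries (adjusted p 0.0508 to 0.207). These were Ics 0 h replicates 1 and 4, 3 h replicate 4 and all 4 at 6 h. Pfkl held 32.4% of the phosphofructokinase level per kilobase at 0 h, 30.5% at 3 h and 78.1% at 6 h. By the longest transcript these shares were 40.2%, 38.3% and 83.5%, so both lengths put Pfkl first at 6 h and Pfkp first before.

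**Figure D2:**
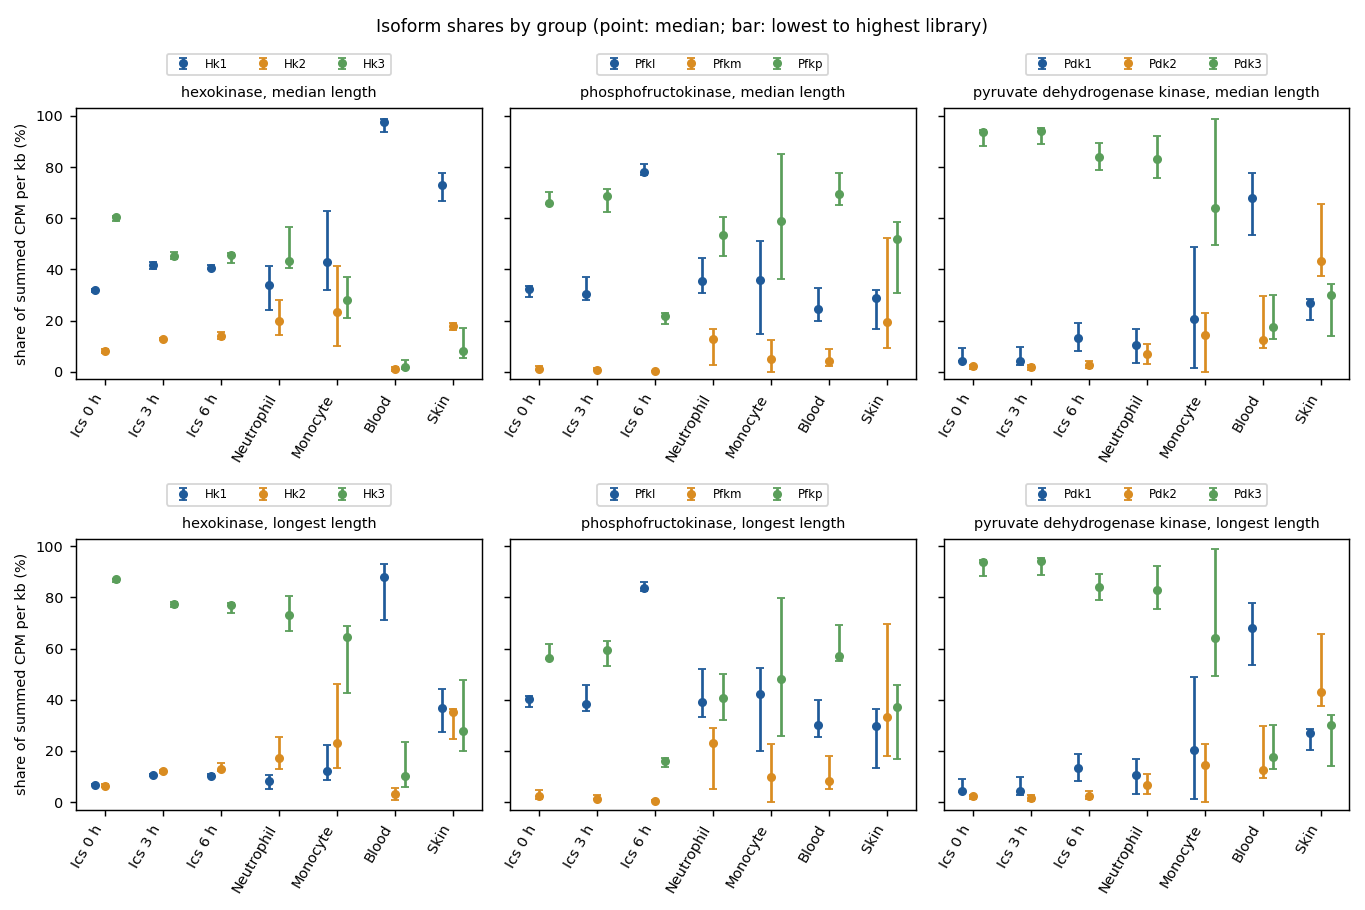
Share of each isoform in the summed CPM per kilobase of its family (vertical axis, percent) by group, for hexokinases, phosphofructokinases and pyruvate dehydrogenase kinases, with the median annotated transcript length above and the longest below. Points are medians and bars run from the lowest to the highest library. Pfkl rises to 78.1% at Ics 6 h, and blood stands apart with Hk1 and Pdk1 leading.

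The bifunctional enzymes coded by Pfkfb genes make and remove a sugar bisphosphate that activates phosphofructokinase. Pfkfb3 (chromosome 2, 11471433 to 11554077), the strongly glycolytic and inflammation-induced isoform, had 71.5, 71.4, 73.2 and 75.7 CPM at 0 h, 112, 111, 137 and 116 at 3 h and 89.5, 96.5, 98.1 and 94.3 at 6 h. No library at 0 h or 6 h reached the lowest at 3 h, with log2 changes of 0.71 ± 0.066 (adjusted p = 4.10e-07) at 3 h, 0.38 ± 0.066 at 6 h and -0.33 ± 0.066 between them. Pfkfb4 was the most counted of the 3, at 297 ± 16.6, 257 ± 25.4 and 257 ± 37.8 CPM, and did not pass (log2 -0.20 ± 0.096 at 6 h, adjusted p = 0.0815). Pfkfb2 was at 4.40 to 5.21 CPM at 0 h, 5.23 to 6.44 at 3 h and 3.49 to 5.35 at 6 h. Its fall from 3 h to 6 h (log2 -0.42 ± 0.14, adjusted p = 0.0263) did not pass without Ics 3 h replicate 3 or 4 or 6 h replicate 1, 3 or 4 (adjusted p 0.0519 to 0.0997).

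The lower pathway split into an aldolase that rose throughout, a pair that dipped at 3 h, and a set that rose late and little. Aldoa (chromosome 7, 126795234 to 126800751), which splits the sugar bisphosphate into trioses, had 384, 407, 411 and 414 CPM at 0 h, 474, 528, 484 and 508 at 3 h and 1059, 895, 1153 and 908 at 6 h. No library of one time overlapped another, and the log2 change at 6 h was 1.31 ± 0.075 (adjusted p = 2.11e-09). The smaller rise at 3 h (log2 0.30 ± 0.074) did not pass with library totals alone (log2 0.056, adjusted p = 0.4604). The annotation holds 2 gene models named Aldoa, which share a single row here.

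Tpi1, which interconverts the triose phosphates, had 62.4, 57.4, 58.2 and 62.3 CPM at 0 h, 33.1, 33.5, 27.0 and 31.3 at 3 h and 52.1, 44.3, 52.7 and 44.7 at 6 h. The dip at 3 h (log2 -0.94 ± 0.082, adjusted p = 1.86e-07) was followed by a rise of 0.63 ± 0.082 to a level still below 0 h. Pgam1, phosphoglycerate mutase, had 351, 326, 368 and 334, then 192, 214, 193 and 213, then 397, 349.6, 394 and 356 CPM. It fell by 0.76 on the log2 scale at 3 h and rose by 0.88 ± 0.062 by 6 h, where it did not differ from 0 h past the threshold (log2 0.12 ± 0.062, adjusted p = 0.113). Pgam1-ps2, a copy of this gene by its name, held 0 to 9.38 CPM in the Ics libraries. Their sequences were not compared, and whether reads were shared between them was not tested.

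The remaining genes of the lower pathway that were tested, Gapdh, Pgk1, Eno1 and Pkm, changed less. Gapdh was at 726 to 759 CPM at 0 h and 763 to 912 at 6 h (log2 0.17 ± 0.061, adjusted p = 0.0271). This did not pass without Ics 0 h replicate 1 or 2 or 6 h replicate 3 (adjusted p 0.0548 to 0.0870). Pgk1 rose only between 3 h and 6 h (log2 0.23 ± 0.063), from 232 to 275 to 272 to 321 CPM. Eno1, enolase, rose from 538 to 546 to 565 to 724 CPM at 6 h (log2 0.23 ± 0.069), with its rise from 3 h (log2 0.19 ± 0.069) lost without Ics 3 h replicate 1 or 6 h replicate 1 or 3 (adjusted p 0.0542 to 0.132). Pkm, pyruvate kinase and the most counted member, had 1301, 1304, 1324 and 1348 CPM at 0 h, 1312, 1436, 1385 and 1412 at 3 h and 1683, 1572, 1839.9 and 1608 at 6 h. It rose at 6 h by 0.34 ± 0.053 (adjusted p = 5.50e-05) and had not passed at 3 h. At 3 h Gapdh, Eno1 and Pkm did not pass with TMM scaling, whereas with library totals alone each passed as lower. With that scaling the rises of Gapdh and Eno1 at 6 h did not pass.

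Pyruvate is reduced to lactate by lactate dehydrogenase or enters mitochondria through the pyruvate dehydrogenase complex, which the Pdk kinases switch off. Ldha (chromosome 7, 46841475 to 46855627), the subunit that favours lactate, had 230.2, 226, 234 and 227 CPM at 0 h, 338, 401, 333 and 363 at 3 h and 250.4, 237, 269.5 and 261 at 6 h. All 3 h libraries were above all others. The log2 change was 0.64 ± 0.061 at 3 h (adjusted p = 4.74e-07) and -0.49 ± 0.061 from 3 h to 6 h. What was left at 6 h (log2 0.15 ± 0.061, adjusted p = 0.0458) did not pass without any one of Ics 0 h replicates 1 to 4 or 6 h replicates 3 and 4 (adjusted p 0.05785 to 0.115), and was -0.013 with library totals alone. Ldhb, the subunit of oxidative tissues, fell from 5.62, 3.82, 4.46 and 3.75 CPM at 0 h to 1.88, 1.099, 1.32 and 1.38 at 6 h (log2 -1.63 ± 0.19, adjusted p = 4.05e-06). Ldha held 98.3% of the pair per kilobase at 0 h and 99.5% at 6 h by median length.

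Pdk3, the kinase that held 93.7% of the level per kilobase of the 3 at 0 h, fell from 33.7, 32.3, 31.7 and 35.6 CPM to 18.6, 20.7, 20.0 and 21.3 at 3 h and 22.0, 18.1, 18.0 and 23.5 at 6 h (log2 -0.72 ± 0.094 and -0.71 ± 0.093). Pdk1, the known HIF target, spread widely, with 8.55, 3.38, 3.60 and 3.82 CPM at 0 h, 2.00, 5.52, 2.38 and 1.47 at 3 h and 9.08, 6.42, 10.6 and 5.21 at 6 h. Its groups overlapped, and it rose between 3 h and 6 h alone (log2 1.46 ± 0.40, adjusted p = 0.00926). Pdk2 stayed at or below 1.07 CPM and did not pass. The lactate exporter Slc16a3 (chromosome 11, 120948480 to 120960868), MCT4, was at 1047 to 1164 CPM at 0 h and 1038 to 1222 at 3 h, and lower at 6 h, at 812 to 911 (log2 -0.35 ± 0.059, adjusted p = 0.000110). Slc16a1, the carrier MCT1, was at 5.22 ± 2.01, 4.42 ± 1.28 and 3.63 ± 0.486 CPM and did not pass (log2 -0.52 ± 0.26 at 6 h, adjusted p = 0.0974).

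**Figure D3:**
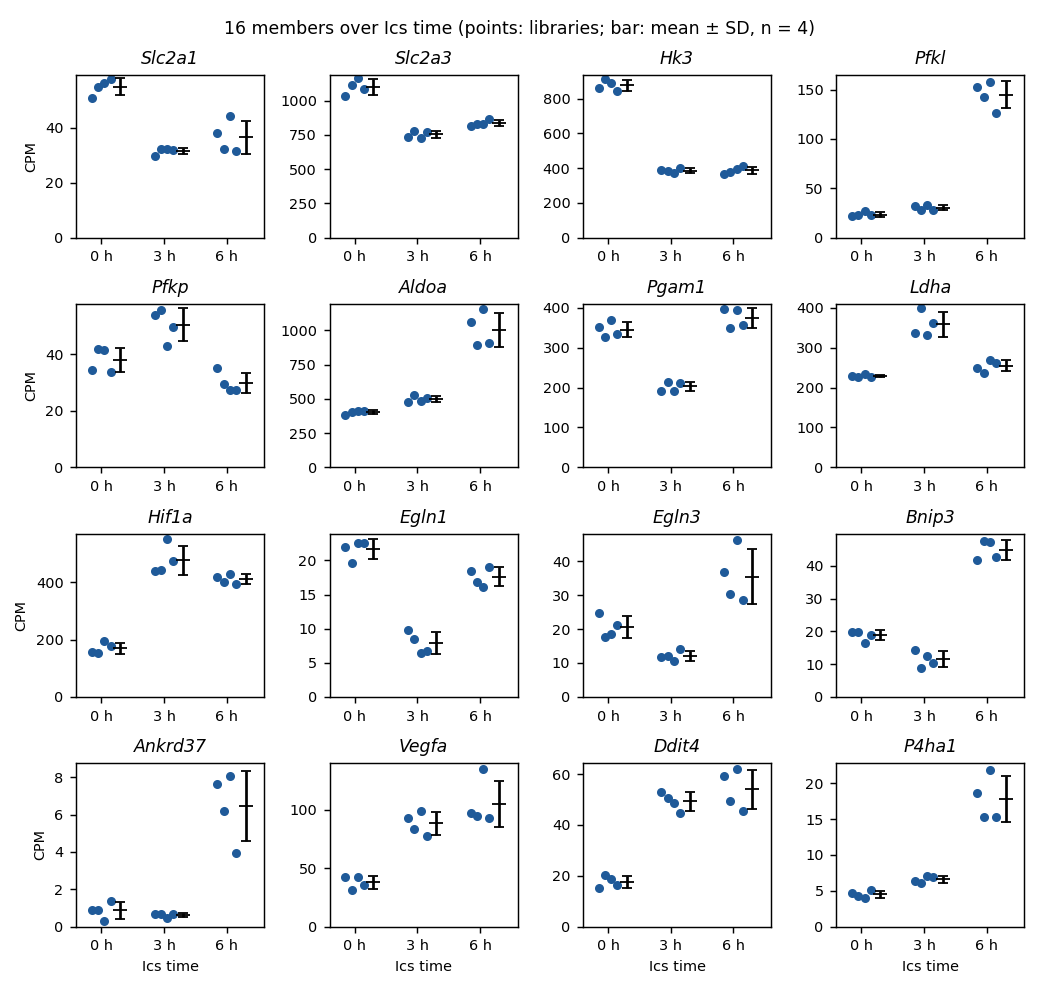
CPM (vertical axes from 0) of 16 members at Ics 0 h, 3 h and 6 h, with a point for each library and a bar for mean ± SD (n = 4). Hif1a, Vegfa and Ddit4 step up at 3 h, Pfkl, Aldoa, Ankrd37 and P4ha1 at 6 h, while Egln3 and Bnip3 dip at 3 h before they rise, and Ldha and Pfkp peak at 3 h.

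Hif1a rose while Egln1 and Egln3 fell at 3 h. Hif1a (chromosome 12, 73901375 to 73947530) had 156, 152, 195 and 176 CPM at 0 h, 439.9, 441, 549 and 475 at 3 h and 419, 401, 430.0 and 393 at 6 h. The highest value at 0 h lay below every later one. The log2 change was 1.49 ± 0.086 at 3 h (adjusted p = 2.39e-09) and 1.27 ± 0.085 at 6 h, with -0.21 ± 0.084 between these times (adjusted p = 0.0559). Egln1 (chromosome 8, 124908587 to 124949324), the main prolyl hydroxylase in oxygen, had 21.9, 19.6, 22.5 and 22.6 CPM at 0 h, 9.87, 8.45, 6.48 and 6.79 at 3 h and 18.5, 16.9, 16.0 and 19.1 at 6 h. It fell by 1.45 on the log2 scale at 3 h (adjusted p = 1.70e-07) and rose by 1.15 ± 0.13 from 3 h to 6 h. Its remaining fall at 6 h (log2 -0.30 ± 0.12, adjusted p = 0.0443) did not pass without any one of 9 libraries (adjusted p 0.0524 to 0.141), all but Ics 0 h replicate 2, 3 h replicate 1 and 6 h replicate 4. Egln3 (chromosome 12, 54178981 to 54203860), the hydroxylase that HIF itself induces, had 24.8, 17.6, 18.5 and 21.2 CPM at 0 h, 11.7, 11.9, 10.46 and 14.0 at 3 h and 36.7, 30.3, 46.3 and 28.5 at 6 h. The 3 times did not overlap, and the log2 changes were -0.77 ± 0.16 at 3 h, 0.79 ± 0.15 at 6 h (adjusted p = 0.000415) and 1.56 ± 0.16 between them.

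HIF binds the short word ACGTG or GCGTG, so the promoters of the members were searched for both, on both strands, in the 250 bases before each RefSeq start (GRCm38.p6). Of the members, 34 matched the promoter table, with 51 starts, and Slc2a3 and Bnip3l had no entry. Either word was found at 42 of the 51 starts (82.4%), against 38.6% of all 32851 promoters. ACGTG alone was at 27 starts (52.9%, against 16.6%). The list was drawn up with genes that HIF is known to control, so these higher shares are no independent result. Some windows of the same gene overlap, as for Eno1, Aldoa and Pfkm, so a word can count at more than 1 start. The median share of G and C was 61.6% in the windows of the members and 52.4% in all windows. Gpi1 and Tpi1 had neither word at their start. Both were lower at 3 h, as were Slc2a1, Hk1, Hk3, Pgam1, Pdk3, Egln1, Egln3 and Bnip3, which did have a word at a start. The stretches below are shown because they set genes of different time courses side by side: Bnip3 and Egln3 dipped at 3 h and rose by 6 h, Ankrd37 and P4ha1 were highest at 6 h, Ldha peaked at 3 h and Hk3 fell. They were chosen after their values were seen. Each is written 5′ to 3′ on the strand of the gene and ends at the base before the start, except that 13 bases of Bnip3 and 17 of Ankrd37 next to the start, which an annotated exon covers, are left out. Capitals mark the words on either strand (on the other strand they read CACGT and CACGC), and neighbouring words can overlap.
Bnip3: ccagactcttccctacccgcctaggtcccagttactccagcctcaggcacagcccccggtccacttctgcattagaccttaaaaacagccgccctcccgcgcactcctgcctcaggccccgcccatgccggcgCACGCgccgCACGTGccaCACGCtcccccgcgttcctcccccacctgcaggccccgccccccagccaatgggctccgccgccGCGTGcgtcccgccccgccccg
Egln3: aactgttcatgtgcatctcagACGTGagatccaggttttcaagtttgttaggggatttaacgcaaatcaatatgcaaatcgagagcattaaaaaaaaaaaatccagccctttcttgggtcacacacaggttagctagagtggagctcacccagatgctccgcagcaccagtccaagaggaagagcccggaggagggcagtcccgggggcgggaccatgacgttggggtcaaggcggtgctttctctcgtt
Ankrd37: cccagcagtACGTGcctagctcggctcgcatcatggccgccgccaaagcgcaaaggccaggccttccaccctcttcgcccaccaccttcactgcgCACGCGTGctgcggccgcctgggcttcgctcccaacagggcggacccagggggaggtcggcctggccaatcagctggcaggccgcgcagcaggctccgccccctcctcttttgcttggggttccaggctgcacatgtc
P4ha1: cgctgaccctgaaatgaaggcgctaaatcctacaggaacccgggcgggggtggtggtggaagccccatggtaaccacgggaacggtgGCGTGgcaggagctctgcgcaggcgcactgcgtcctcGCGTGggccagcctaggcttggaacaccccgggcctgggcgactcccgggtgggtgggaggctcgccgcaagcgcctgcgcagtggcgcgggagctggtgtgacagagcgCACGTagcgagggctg
Ldha: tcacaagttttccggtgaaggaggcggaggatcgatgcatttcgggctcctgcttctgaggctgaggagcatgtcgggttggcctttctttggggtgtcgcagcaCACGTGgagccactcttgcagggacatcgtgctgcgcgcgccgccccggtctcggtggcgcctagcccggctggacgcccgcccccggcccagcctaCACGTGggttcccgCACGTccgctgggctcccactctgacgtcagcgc
Hk3: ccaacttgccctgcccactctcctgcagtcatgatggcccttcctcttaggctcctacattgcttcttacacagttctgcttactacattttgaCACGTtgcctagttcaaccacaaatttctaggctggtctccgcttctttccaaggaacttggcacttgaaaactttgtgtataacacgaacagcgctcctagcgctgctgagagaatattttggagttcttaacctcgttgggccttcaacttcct
Bnip3 (chr7:138909520-138909756, minus strand) held 2 matches to ACGTG and 3 to GCGTG, Ankrd37 (chr8:45999868-46000100, minus strand) 1 and 2, and P4ha1 (chr10:59323046-59323295, plus strand) 1 and 2. Ldha (chr7:46845554-46845803, plus strand) held 5 matches to ACGTG, since each CACGTG counts on both strands. Egln3 (chr12:54203875-54204124, minus strand) and Hk3 (chr13:55021386-55021635, minus strand) held 1 each, though the first rose and the second fell. A match is a description of letters, not of binding.

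Among the target genes, those of mitochondrial removal rose at 6 h and not at 3 h. Bnip3 (chromosome 7, 138890836 to 138909519), a mitophagy receptor, had 19.8, 19.8, 16.6 and 19.0 CPM at 0 h, 14.4, 8.69, 12.5 and 10.497 at 3 h and 41.7, 47.6, 47.3 and 42.7 at 6 h, with no overlap between times. The log2 change was -0.71 ± 0.13 at 3 h (adjusted p = 0.000282), 1.25 ± 0.12 at 6 h (adjusted p = 6.83e-07) and 1.96 ± 0.13 between them. Its relative Bnip3l, which also clears mitochondria from maturing red cells, was at 229 to 266 CPM at 0 h, 219 to 273 at 3 h and 283 to 296 at 6 h (log2 0.25 ± 0.065 at 6 h). That rise did not pass with library totals alone. Ankrd37 (chromosome 8, 45996902 to 46005707), a small ankyrin repeat protein gene with a HIF-responsive promoter, had 0.884, 0.888, 0.309 and 1.40 CPM at 0 h, 0.668, 0.665, 0.475 and 0.656 at 3 h and 7.67, 6.204, 8.10 and 3.93 at 6 h. It was the largest riser of the members (log2 2.90 ± 0.33 at 6 h against 0 h, adjusted p = 3.06e-06), though from few counts.

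The collagen prolyl hydroxylase gene P4ha1 (chromosome 10, 59323296 to 59373304) rose at each step, from 4.67, 4.23, 4.01 and 5.15 CPM at 0 h to 6.35, 6.03, 7.09 and 6.87 at 3 h and 18.7, 15.3, 21.9 and 15.3 at 6 h (log2 1.98 ± 0.13 at 6 h, adjusted p = 1.31e-08). Its rise at 3 h (log2 0.54 ± 0.14) did not pass with library totals alone (log2 0.30, adjusted p = 0.0658). Vegfa (chromosome 17, 46016993 to 46032369), the angiogenic growth factor, and Ddit4 (chromosome 10, 59949669 to 59951834), an inhibitor of the growth kinase mTORC1, rose at once and stayed up. Vegfa had 42.7, 31.3, 42.4 and 35.3 CPM at 0 h, 93.2, 83.7, 99.3 and 77.5 at 3 h and 97.3, 95.1, 135 and 92.7 at 6 h (log2 1.22 ± 0.13 and 1.47 ± 0.13). Ddit4 had 15.4, 20.5, 18.7 and 16.2, then 53.0, 50.7, 48.8 and 44.5, then 59.2, 49.5, 62.0 and 45.5 CPM (log2 1.48 ± 0.11 and 1.61 ± 0.11). Neither passed between 3 h and 6 h (adjusted p = 0.139 and 0.355). Of the 9 hypoxia genes, then, 3 had risen at 3 h and stayed up, P4ha1 rose at both steps, and Egln3, Bnip3, Bnip3l and Ankrd37 were above 0 h only at 6 h. Egln1 was above 0 h at neither time.

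Every one of the 20 calls at 3 h was kept when each Ics library was left out in turn, as were 23 of the 27 at 6 h against 0 h and 19 of the 22 between 3 h and 6 h. With library totals alone, Pfkl, Pfkp, Aldoa and P4ha1 were lost at 3 h, Gapdh, Eno1, Ldha and Bnip3l at 6 h against 0 h, and Pfkfb2 between 3 h and 6 h.

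Genes of neighbouring pathways gave the setting. For the list counts that follow, the background at 3 h was 54.4% of all genes tested, with 26.9% higher and 27.5% lower. At 6 h against 0 h it was 60%, with 29.6% higher and 30.4% lower. Of 9 pentose phosphate genes, which divert glucose 6-phosphate to NADPH, 3 rose and 3 fell at 3 h and 4 rose and 3 fell at 6 h against 0 h. Pgd, phosphogluconate dehydrogenase, rose from 1006 ± 22.3 to 1704 ± 54.7 and 2151 ± 193 CPM (log2 1.097 ± 0.059 at 6 h). Taldo1, transaldolase, rose from 737 ± 12.0 to 1602 ± 155 CPM at 6 h (log2 1.12 ± 0.066), and H6pd, the dehydrogenase of the endoplasmic reticulum, peaked at 149 ± 16.7 CPM at 3 h from 57.0 ± 4.38. Of 13 tested genes of glycogen and gluconeogenesis, 2 rose and 5 fell at 3 h, and 5 rose and 3 fell at 6 h. The branching enzyme gene Gbe1 dipped and then rose, from 37.0 ± 3.24 to 25.1 ± 2.06 to 66.0 ± 9.92 CPM, and glycogen synthase Gys1 fell (log2 -0.54 ± 0.052 at 6 h). The smaller carriers had 1 riser and 4 fallers of 8 tested at 3 h, and 2 and 3 at 6 h. Slc2a6, a sugar transporter of lysosomes, rose to 343 ± 15.4 CPM at 3 h from 139.5 ± 6.84. Emb, which brings some monocarboxylate carriers to the membrane, fell from 499 ± 24.9 to 214 ± 17.3 CPM at 6 h, and the carrier Slc16a7 from 14.3 ± 3.24 to 1.97 ± 0.565. Of 10 other isozymes of the glycolytic steps, 2 rose and 2 fell at each time. Ldhc, the testis-type lactate dehydrogenase, was at 2.32 ± 0.241 CPM at 0 h and 16.4 ± 1.58 at 3 h, while Bpgm, which makes bisphosphoglycerate in red cells, went from 5.94 ± 1.43 to 1.001 ± 0.108 and Pgam2 from 8.83 ± 0.977 to 4.11 ± 0.514.

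On the mitochondrial side, 4 of 10 genes of pyruvate entry rose and 3 fell at 3 h, and 1 rose and 5 fell at 6 h. Mpc1 and Mpc2, the partners of the mitochondrial pyruvate carrier, moved apart, Mpc1 from 37.6 ± 2.26 to 62.9 ± 4.15 CPM and Mpc2 from 74.0 ± 2.04 to 43.6 ± 3.74 at 6 h. Pdha1, a subunit of pyruvate dehydrogenase, fell by 0.46 on the log2 scale at 6 h. Of 21 tricarboxylic acid cycle genes, 4 rose and 9 fell at 3 h and 5 rose and 9 fell at 6 h. Ogdh and Dlst, subunits of the oxoglutarate dehydrogenase complex, fell by 0.72 and 0.77 at 6 h. Acod1, which draws cis-aconitate off to itaconate, rose from 150.2 ± 39.8 CPM to 3423 ± 555 at 3 h and 1788 ± 357 at 6 h.

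Among 8 other tested genes of the HIF core, 3 rose and 2 fell at 3 h and 5 rose and 2 fell at 6 h. Arnt, the partner subunit of HIF, rose at 6 h (log2 0.45 ± 0.068), the hydroxylase Egln2 rose at both times to 73.1 ± 2.44 CPM from 35.6 ± 3.11, and the asparaginyl hydroxylase Hif1an rose by 0.36 ± 0.052. Of 17 further HIF targets, 6 rose and 4 fell at 3 h and 10 rose and 4 fell at 6 h. Kdm3a, a histone demethylase, rose to 127 ± 15.3 CPM from 49.9 ± 2.72, the MYC antagonist Mxi1 to 278 ± 8.63 from 185 ± 8.40, and Hmox1, haem oxygenase, to 1276 ± 332 from 45.9 ± 5.98. Of 15 regulators of glucose use, 9 rose and 2 fell at 3 h and 7 rose and 3 fell at 6 h. Among them the kinase subunit gene Prkaa1 (log2 0.81 ± 0.044 at 6 h), Trp53 (1.45 ± 0.078) and the oxidant response factor Nfe2l2 (1.62 ± 0.078) rose.

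Between labelled cell types, neutrophils held more of the pathway than monocytes. Of the 36 members, 18 were higher and 1 lower in the 8 neutrophil than in the 7 monocyte libraries (edgeR adjusted p under 0.05, with a background of 27.3% of 18047 genes, 15.4% higher and 12% lower). The median log2 difference was 0.71 for the members and 0 for all genes. Groups did not overlap for 12 members, all higher in neutrophils (background 10.4%). With all 34 libraries as labelled, 7 were higher and 0 lower. Among neighbouring lists, 5 of 9 pentose phosphate genes were higher and 0 lower in neutrophils, against 7 and 1 of 14 genes of glycogen and gluconeogenesis. For the tricarboxylic acid cycle these counts were 3 and 4 of 21, for the other genes of the HIF core 0 and 1 of 10, and for the further HIF targets 3 and 1 of 23.

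The 2 largest differences, in Slc2a3 and Slc16a3, lay in transport across the cell membrane. Slc2a3 had 238, 336 and 432 CPM (lowest, median and highest of 8) in neutrophils and 4.03, 12.3 and 31.8 in monocytes. No library overlapped, and the log2 difference was 4.52 ± 0.42 (adjusted p = 1.39e-08). Slc2a1 had 13.4, 21.3 and 47.9 CPM against 1.40, 5.86 and 10.6 (log2 2.14 ± 0.38). The lactate exporter Slc16a3 had 112, 129 and 292 CPM in neutrophils against 15.0, 22.0 and 30.9 in monocytes (log2 2.80 ± 0.32, adjusted p = 3.36e-07). The other lactate carrier, Slc16a1, overlapped, with 2.55, 20.7 and 28.7 and 3.58, 9.63 and 27.7 CPM (log2 0.33 ± 0.45, adjusted p = 0.644).

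Inside the pathway Hk3 (197, 256 and 447 against 51.6, 71.2 and 90.0 CPM, log2 2.07 ± 0.28), Gpi1 (1.53 ± 0.18), Pfkfb4 (51.001, 67.6 and 142 against 4.50, 15.6 and 28.5 CPM, log2 2.30 ± 0.30), Pgk1 (0.99 ± 0.15), Pkm (1.26 ± 0.19) and Ldha (1.26 ± 0.15) were higher in every neutrophil library than in any monocyte library. The same held for Hk1 (0.90 ± 0.20) and Aldoa (0.77 ± 0.21). Among hypoxia genes, Vegfa was at 13.1, 14.8 and 18.2 CPM against 0, 3.04 and 8.34 (log2 2.20 ± 0.60), while Hif1a itself was at 15.4, 23.0 and 31.98 and 13.7, 18.9 and 29.8 CPM and did not pass (log2 0.15 ± 0.21, adjusted p = 0.640). Bnip3l (0.86 ± 0.27) and Eno1 (0.68 ± 0.21) were higher as well. The other 17 members did not pass, with log2 differences from -1.002 ± 0.43 (Pdk1) to 1.28 ± 0.54 (Bnip3).

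Some calls were lost when a single library was left out. Pfkp, the 1 member lower in neutrophils (log2 -0.67 ± 0.25, adjusted p = 0.0423), did not pass without any one of 8 libraries (adjusted p 0.0520 to 0.359): Neutrophil IVIG 1 and 4, Neutrophil PBS 2, 3, 4 and 5, Monocyte PBS 3 or Monocyte IVIG 3. Gapdh (log2 0.74 ± 0.27) did not pass without any one of 12 libraries (adjusted p 0.0506 to 0.0981), which were the neutrophil libraries other than PBS 3 and the monocyte libraries other than PBS 3 and IVIG 3. Hk2 (log2 0.91 ± 0.32) was lost without any one of 9 (adjusted p 0.0504 to 0.0922), namely Neutrophil PBS 2, 3 and 5 and IVIG 4, and Monocyte PBS 2, 3 and 5 and IVIG 1 and 2. Egln3 (log2 1.41 ± 0.47) was lost without Neutrophil PBS 2 or Monocyte PBS 4 or 5 (adjusted p 0.0530 to 0.0626), and Ddit4 (log2 1.51 ± 0.50) without Monocyte PBS 2 (adjusted p = 0.0544). With library totals alone Hk2, Pfkp, Aldoa, Gapdh, Eno1, Egln3 and Bnip3l did not pass (adjusted p 0.0712 to 0.545). With only the libraries deposited as PBS the same 7 did not pass, nor did Hk1 (adjusted p = 0.0953), Ddit4 (0.0715) and Vegfa (0.120). Hk1 and Vegfa were also lost with all 34 libraries as labelled (adjusted p = 0.0671 and 0.282).

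The 8 neutrophil libraries also differed among themselves. In Neutrophil IVIG 1, IVIG 2 and PBS 2 the S100a8 and S100a9 sum was 53899 to 71213 CPM, against 34364 to 42456 in the other 5, and red cell markers were 73.4 to 143 CPM against 772 to 960.0. In these 3 libraries Slc16a1 was 2.55, 6.12 and 2.75 CPM, against 19.6 to 28.7 in the other 5. Pfkm was 1.74, 2.70 and 1.48 CPM against 7.98 to 11.7, and Bnip3l and Slc16a3 were highest in the same 3. As deposited, the titles begin with S5 for IVIG 1, S2 for PBS 2 and S3 for IVIG 2 and the other 5. Under the order of the descriptions IVIG 1 and PBS 2 would be titled S5, IVIG 2 S2 and the other 5 S3. The labels do not say what this prefix marks. The part of these 3 libraries in the differences was not tested. Without them 11 members were higher and 0 lower in neutrophils, with Hk2, Pfkp, Aldoa, Gapdh, Eno1, Egln3, Bnip3l and Ddit4 no longer passing. Of the monocyte libraries, PBS 3 and IVIG 2 had 8984 and 11002 genes at 5 counts or more, against 13929 to 16378 in the rest. PBS 3 held 0 of Egln3, Bnip3, Vegfa, P4ha1 and Pfkm, with the highest Pfkp and Pfkfb3. Without these 2, 19 members were higher and 2 lower in neutrophils, with Hk2 and Pfkp no longer passing, Pdk3 and Bnip3 now higher and Pdk1 and P4ha1 now lower. Among the 6 neutrophil and 3 monocyte libraries titled S3, 18 members were higher and 2 lower in neutrophils. Hk2, Pfkp, Gapdh, Eno1 and Bnip3l did not pass there, Pfkm, Pfkfb3, Pdk3 and Slc16a1 were now higher, and Pfkfb2 and P4ha1 were now lower. With the prefix as a term, 17 were higher and 1 lower, and Gapdh did not pass (adjusted p = 0.0636). These prefixes are those of the deposited names. Under the order of the descriptions Neutrophil IVIG 2 and Monocyte PBS 4 would be titled S2 and Monocyte PBS 3 S5.

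**Figure D4:**
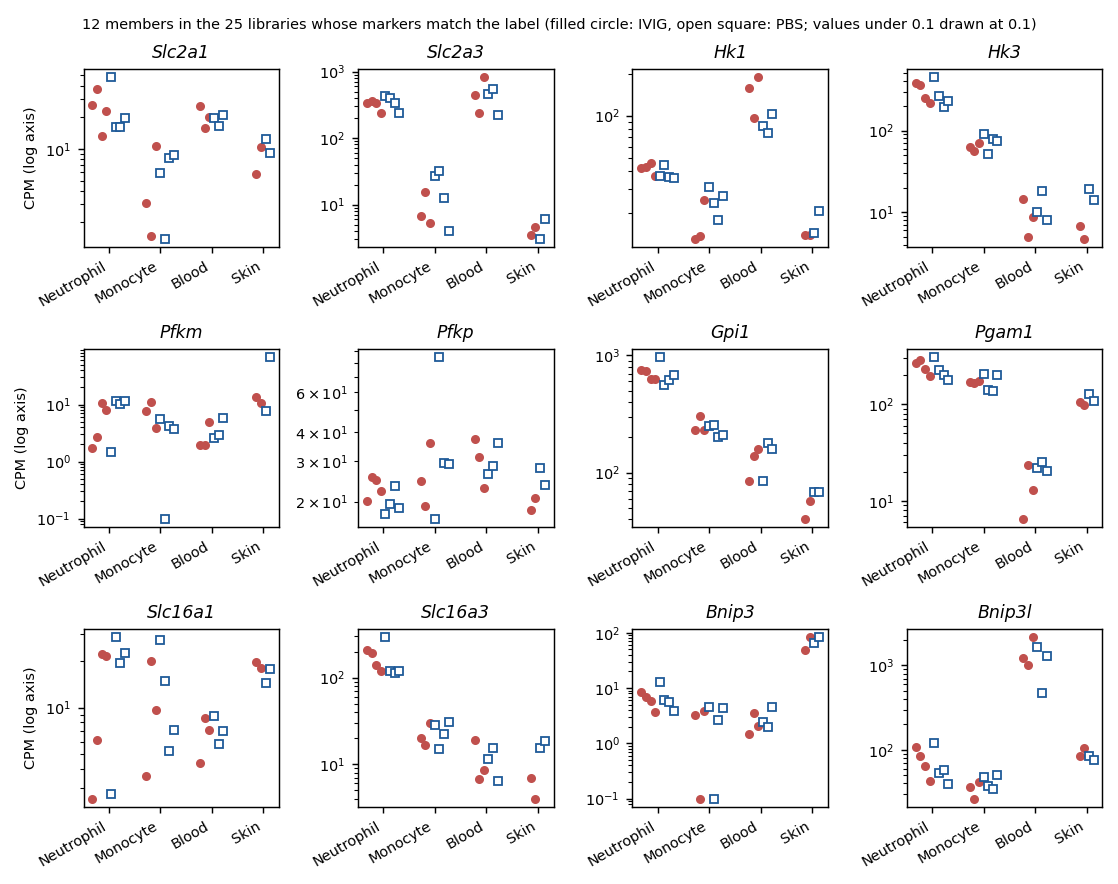
CPM (log axes) of 12 members in the 25 libraries whose markers matched their label, with filled circles for IVIG and open squares for PBS by deposited name. Slc2a3 and Slc16a3 are high in neutrophils, Hk1 and Bnip3l in blood and Bnip3 in skin, and 3 neutrophil libraries sit low for Pfkm and Slc16a1.

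Whole blood gave another isoform profile. Its red cell markers held 896400 to 942500 CPM in the 6 libraries, which is most of their counts. Of the 36 members, 5 were higher and 16 lower in blood than in neutrophils (background 42.8%, 21% higher and 21.7% lower), with medians of -0.51 for the members and -0.030 for all genes. Groups did not overlap for 17 members (background 33.7%). The balance turned on scaling: RLE factors gave 10 higher and 14 lower, DESeq2 11 and 14, and library totals alone 0 and 34, with the median of all genes at 0.16, 0.28 and -3.58. Of the 5 members called higher, Hk1, Pfkfb2, Pdk1 and Ddit4 turned to lower with library totals alone, and Bnip3l did not pass (log2 0.48, adjusted p = 0.210). All 6 blood libraries are titled S3 as deposited, and against the 6 neutrophil libraries of that prefix 10 members were higher and 20 lower in blood. Under the order of the descriptions Blood IVIG 1 would be titled S5 and Neutrophil IVIG 2 S2.

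Bnip3l had 467, 1260.1 and 2158 CPM in blood against 39.2, 60.4 and 121 in neutrophils (log2 4.19 ± 0.30, adjusted p = 8.51e-12). This is the largest gain of the 36, in the gene that clears mitochondria during red cell maturation. Hk1 had 74.6, 99.5 and 188 CPM against 35.6, 39.6 and 45.9 (log2 1.54 ± 0.21), and held 97.5% of the hexokinase level per kilobase in blood (by the longest transcript 87.9%). Hk2 and Hk3 were lower, with log2 differences of -4.55 ± 0.42 and -4.76 ± 0.35 and with Hk3 at 5.03, 9.38 and 18.4 CPM. Pdk1 had 26.3, 32.9 and 74.3 CPM against 2.16, 5.76 and 10.7 (log2 2.80 ± 0.46) and held 67.9% of the Pdk level per kilobase, where in neutrophils Pdk3 held 83.0%. Pgam1 had 6.53, 21.2 and 25.2 CPM against 176, 227 and 306 (log2 -3.67 ± 0.24, adjusted p = 2.95e-12), and Slc16a3 6.33, 10.0 and 18.9 against 112, 129 and 292 (log2 -3.85 ± 0.37). Slc2a3 was at 223, 457 and 817 CPM in blood and did not pass against neutrophils (log2 0.44 ± 0.37, adjusted p = 0.359).

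Further members lower in blood were Gpi1 (log2 -2.38 ± 0.20), Pgk1 (-1.91 ± 0.17), Eno1 (-1.47 ± 0.22), Gapdh (-1.17 ± 0.29), Ldhb (-1.41 ± 0.31), Pdk3 (-2.19 ± 0.36), Pfkfb4 (-1.82 ± 0.32), Ldha (-0.64 ± 0.15), Egln1 (-0.53 ± 0.19), Egln3 (-1.84 ± 0.53) and Vegfa (-4.03 ± 0.77). Pfkfb2 (log2 1.79 ± 0.62) was higher in blood but did not pass without Blood IVIG 1, 4 or 5 or Blood PBS 5 (adjusted p 0.0507 to 0.0745). Ddit4 (log2 1.29 ± 0.50) was lost without any one of 12 of the 14 libraries (adjusted p 0.0548 to 0.188), all but Neutrophil IVIG 1 and PBS 3. Pkm (log2 -0.48 ± 0.19) was lost without Neutrophil IVIG 1, IVIG 2, PBS 2 or PBS 3 (adjusted p 0.0652 to 0.1002). Ldha, Egln1 and Egln3 were each lost in some alternative other than library totals alone and all 34 libraries as labelled. The other 15 members did not pass, with log2 differences from -1.31 ± 0.62 (Bnip3) to 1.54 ± 0.64 (Ankrd37).

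**Figure D5:**
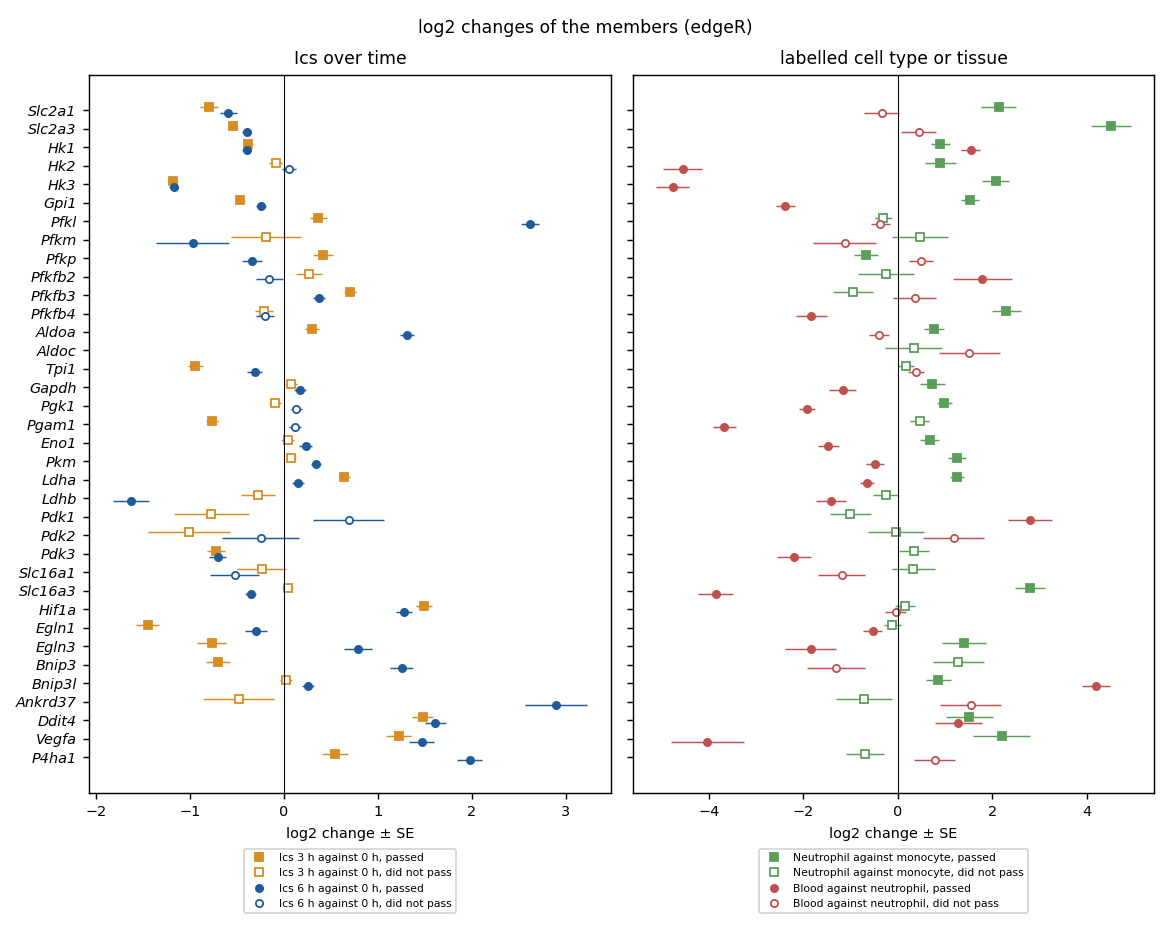
Log2 change (horizontal axes) of each member with its SE, at 3 h and 6 h against 0 h in the Ics libraries (left) and for neutrophil against monocyte and blood against neutrophil (right). Filled symbols passed at an adjusted p under 0.05. On the left Hk3 lies far below 0 and Pfkl and Ankrd37 far above it at 6 h, and on the right most neutrophil against monocyte differences lie above 0.

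Between skin and monocytes the members went both ways, with most hypoxia genes called higher and several glycolytic ones lower. Of the 36 members, 12 were higher and 11 lower in 4 skin than in 7 monocyte libraries (background 53.1%, 32.1% higher and 21% lower), with medians of 0.27 for the members and 0.25 for all genes. The share of members higher (33.3%) was thus near that of all genes, and the share lower was 30.6%. Library totals alone gave 14 higher and 3 lower, with the median of all genes at 0.71, and all 34 libraries as labelled gave 8 and 5. Groups did not overlap for 16 members (background 37.1%). Bnip3 had 49.9, 83.0, 64.2 and 83.1 CPM in the 4 skin libraries against 0, 3.28 and 4.64 in monocytes (log2 4.68 ± 0.66, adjusted p = 1.72e-06). Vegfa, Ddit4, P4ha1, Egln3, Bnip3l, Hif1a and Egln1 were higher by 2.89 ± 0.68, 2.53 ± 0.57, 2.03 ± 0.48, 2.04 ± 0.54, 1.16 ± 0.31, 0.85 ± 0.24 and 0.58 ± 0.22 on the log2 scale, so 8 of the 9 hypoxia genes were higher and Ankrd37 did not pass (adjusted p = 0.999). Egln1 did not pass without Skin IVIG 2 or Monocyte PBS 3 (adjusted p 0.0597 to 0.0626). Of the 23 calls, 6 were kept in every alternative other than library totals alone and all 34 libraries as labelled. Among the 8 higher hypoxia genes only Bnip3 was kept. Hif1a, Bnip3l, P4ha1, Vegfa, Ddit4, Egln3 and Egln1 were each lost in some alternative.

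In the pathway itself skin was lower in Hk3 (6.79, 4.74, 19.0 and 13.9 CPM, log2 -2.64 ± 0.37), Hk2 (-1.69 ± 0.42), Gpi1 (-2.04 ± 0.24), Pgk1 (-1.03 ± 0.19), Eno1 (-1.11 ± 0.26), Pkm (-1.34 ± 0.23), Pfkfb4 (-1.11 ± 0.36) and Slc2a3 (-1.77 ± 0.46). It was higher in Ldha (log2 0.82 ± 0.17), Tpi1 (0.74 ± 0.19) and Pdk2 (3.08 ± 0.72). Pgam1 (-0.63 ± 0.25) was lost without Skin IVIG 1, IVIG 2 or PBS 3 or Monocyte PBS 2 or 5 (adjusted p 0.0794 to 0.106). Slc16a3 (-1.05 ± 0.37) was lost without Skin IVIG 1 or 2 (adjusted p 0.0902 to 0.101), and Pdk3 (-1.16 ± 0.39) without Skin PBS 3 or Monocyte IVIG 2 (adjusted p 0.0521 to 0.0734). Pfkm, the muscle phosphofructokinase, had 13.8, 7.65, 10.6 and 67.6 CPM in Skin IVIG 1, PBS 2, IVIG 2 and PBS 3. Skin PBS 3 also held 3619 CPM of 7 skeletal muscle markers, against 36.8 to 313 in the other 3, and 456 CPM of Aldoa against 144 to 192. Without that library the higher Pfkm (log2 2.26 ± 0.70) did not pass (adjusted p = 0.214). With library totals alone 8 of the 11 lower members did not pass, namely Slc2a3, Pfkfb4, Pgk1, Pgam1, Eno1, Pkm, Pdk3 and Slc16a3 (adjusted p 0.0558 to 0.763), nor did the higher Egln1 (adjusted p = 0.0792). All 4 skin libraries are titled S5. Against the 3 monocyte libraries of that prefix 7 members were higher and 9 lower, and Pfkm, Pfkfb4, Tpi1, Slc16a3, Egln3, Ddit4 and Vegfa did not pass (adjusted p 0.0542 to 0.204). Monocyte PBS 3 would join that prefix under the order of the descriptions. In the tests of all 25 libraries the other 13 members did not pass, with log2 differences from -0.77 ± 0.34 (Gapdh) to 1.55 ± 0.71 (Aldoc).

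No member passed between libraries named IVIG and PBS as deposited. In each of blood, neutrophils, monocytes and skin, taken as labelled, edgeR called 0 members and 0 genes (background 0%). Unadjusted p under 0.05 was found for 81, 73, 286 and 157 genes in these tissues, and DESeq2 called 1, 0, 3 and 1 genes. The 2 members with the smallest p in each tissue were as follows. In blood Pdk2 differed by -1.39 ± 0.88 and Pfkm by -2.18 ± 1.497 (log2, IVIG minus PBS). In neutrophils Hif1a differed by 0.55 ± 0.35, at 15.4 to 44.9 CPM with IVIG and 10.1 to 24.4 with PBS, and P4ha1 by -0.38 ± 0.25. In monocytes Pdk1 differed by -1.88 ± 0.82, at 2.51 to 8.84 CPM with IVIG and 6.63 to 64.9 with PBS, and Slc2a3 by -2.29 ± 1.04. In skin Hk3 differed by -1.22 ± 0.47, at 3.24 to 6.23 CPM with IVIG and 8.58 to 13.9 with PBS, and Aldoa by -1.23 ± 0.57. The smallest adjusted p of a member was 0.99988 in blood, 0.999949 in neutrophils, 0.999884 in monocytes and 0.999968 in skin. Restricted to libraries whose markers matched, Hk3 in skin was at -1.55 ± 0.30 (adjusted p = 0.238, 2 libraries a group), and no member passed in any of the 4 tissues. These values hold only for the names as deposited. The 29 names that the order of the descriptions would move include all 9 that the markers contradict. Names of matching libraries would move too. Every matching neutrophil and skin library, most matching monocyte libraries and Blood IVIG 1 would then change between IVIG and PBS. The sign of the Hk3 difference in the matching skin libraries would turn with them. No marker was used to tell IVIG from PBS.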

How the data were processed

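Gene-level RNA-seq of 46 mouse libraries was analysed. The authors deposited estimated counts per gene symbol as length-scaled values. Per the submitters' processing notes, kallisto 0.46.1 and GRCm38 were used, and how transcripts were summed to genes is not given in the sources used here. Before rounding, 43.5% of values were not whole. Rounded counts were tested in R 4.3.3 with edgeR 4.0.16 (glmQLFit and glmQLFTest, quasi-likelihood) after TMM scaling, a minimum count of 10 in filterByExpr, and Benjamini-Hochberg adjustment over all genes, at an adjusted p under 0.05. The 12 Ics libraries were fitted together, as were the 25 tissue libraries whose markers matched their label, by limits of 10% haemoglobin, then 100 CPM of Krt5 and Krt14, then 10000 CPM of S100a8 and S100a9. IVIG was compared with PBS in each tissue as labelled. CPM values are TMM-scaled within each fit, and CPM of markers are of library totals. Levels between isoforms are CPM per kb of protein-coding transcripts of GENCODE vM21. The script was tested on simulated data.

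The members and lists were chosen with earlier results of these data known. All 36 members are accounted for, along with up to 3 genes of each of 9 pathway lists by smallest p at 6 h against 0 h (134 of 136 list genes were in the table), and the 2 members with the smallest p between IVIG and PBS. A list gene that this rule named is not reported here. Alternatives were DESeq2 1.42.0, limma voom 3.58.1, other scaling, no filter, an adjusted p under 0.1, replicate blocks, the title prefix and leaving out libraries. Of 77 pairs of libraries of the same group, 0 held identical values. No per-sample column was without a sample.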

Additional observations from a re-analysis of the deposited data

Results flagged for a closer look

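Of 249 groups of member values, 17 held a library whose gap to the nearest other was above the 95% limit of Dixon's test, and chance alone flags about 1 in 20 groups. In the Ics libraries, Pdk1 was 8.55 CPM in 0 h replicate 1 against 3.38 to 3.82 in the others. Pfkm was 1.78 CPM in 3 h replicate 1 against 0.735 to 0.822, Ankrd37 was 0.475 CPM in 3 h replicate 3 against 0.656 to 0.668, and Vegfa was 134.6 CPM in 6 h replicate 3 against 92.7 to 97.3.

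Among neutrophil libraries, Ankrd37 stood at 1.61 CPM in PBS 2, with the next at 0.942, and Ddit4 at 22.9 CPM in PBS 3, with the next at 16.8. Among monocyte libraries, PBS 3 held 84.9 CPM of the phosphofructokinase Pfkp (next 36.0), 122 CPM of Pfkfb3 (next 55.8) and 0 of P4ha1 (next 8.18). Monocyte PBS 2 held 39.8 CPM of Pdk1 (next 14.6) and 7.86 CPM of Egln3 (next 3.36), and Monocyte IVIG 2 held 48.9 CPM of Pdk3 (next 16.4). Among blood libraries, Ankrd37 was 4.14 CPM in PBS 4 (next 2.39) and Ddit4 66.3 CPM in IVIG 4 (next 38.5). Skin PBS 3 was high in Hk1 (20.9 CPM, next 14.5), Pfkm (67.6 CPM, next 13.8) and Aldoa (456 CPM, next 192), and it held 3619 CPM of skeletal muscle markers, whose part in these values was not tested.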

How the results depend on the processing

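Of 5057 values under alternatives, 4601 were counted as the same. These kept their side of the threshold, and their direction where they passed, or were isoform shares that moved less than their spread. Values that passed in neither fit counted as the same whatever their sign. Of the rest, 248 no longer passed, 150 newly passed, 22 turned direction and 36 isoform shares moved with the transcript length. Leaving out 1 library at a time gave 20 to 22 members and 7690 to 8223 genes at Ics 3 h against 0 h, 23 to 27 and 8511 to 9220 at 6 h against 0 h, and 20 to 23 and 5526 to 6136 between 3 h and 6 h. It gave 15 to 19 members and 4181 to 5455 genes for neutrophil against monocyte, 19 to 22 and 7238 to 7436 for blood against neutrophil, and 21 to 26 and 8654 to 10498 for skin against monocyte. It gave 0 in every IVIG comparison.

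With library totals alone, neutrophil against monocyte had 12 members and 2601 genes and blood against neutrophil 34 and 15563. On that scaling the log2 change at Ics 3 h was -0.17 for Gapdh, -0.21 for Eno1, -0.18 for Pkm, -0.21 for Slc16a3 and -0.22 for Bnip3l, and at 6 h -0.013 for Ldha. The 5 named at 3 h passed as lower there and had not passed with TMM scaling. For blood against neutrophil it was -3.33 for Slc2a3, -2.26 for Hk1, -3.20 for Pfkp, -1.92 for Pfkfb2, -3.37 for Pfkfb3, -2.08 for Aldoc, -3.35 for Tpi1, -0.85 for Pdk1, -2.44 for Pdk2, -2.05 for Ankrd37, -2.32 for Ddit4 and -2.88 for P4ha1.

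With all 34 libraries as labelled, neutrophil against monocyte had 7 members and 1402 genes, blood against neutrophil 9 and 4659, and skin against monocyte 13 members. There Pfkm (2.45) and Egln1 (0.31) turned direction in blood against neutrophil, and Slc2a3 (1.54) in skin against monocyte. With PBS libraries alone, which are fewer, the counts were 9 and 1670, 4477 genes for blood, and 12 and 5980 for skin. The PBS names and title prefixes used here are as deposited, and the order of the descriptions would change them for some libraries. Without the 3 neutrophil libraries rich in S100a8 and S100a9, an alternative chosen after seeing the data, neutrophil against monocyte had 11 members and 2698 genes. Pfkfb3 turned to 0.86 in neutrophil against monocyte among libraries titled S3, also chosen after seeing the data. For IVIG against PBS, DESeq2 called 1 gene in blood, 3 in monocytes and 1 in skin, library totals alone 1 in monocytes, and matching libraries alone 5 in blood and 4 in skin, with 0 members in each. Where no construction of the alternative shows it, the cause was not tested.

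With the replicate number as a block, 21 members and 8462 genes passed at 3 h against 0 h, 27 and 9403 at 6 h against 0 h, and 24 and 6382 between 3 h and 6 h. The deviations of same-numbered Ics libraries correlated at 0.048 to 0.184 in 12 pairs, 8 of them over 0.1, against -0.098 to 0.017 in 36 other pairs. All 12 libraries correlated best with one of their own number, a hint from the data. The titles repeat the numbers without saying what they mark, and not every pair was over 0.1, so the numbers were not treated as a pairing. Low counts limit Aldoc, Pfkm, Pdk2 and Ankrd37.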
